A study of Mus musculus with 3 samples.

Results

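The calcium and chloride channel genes are the voltage-gated calcium channel subunits, the calcium release channels of the endoplasmic reticulum, the anoctamins, the ClC chloride channels and exchangers, and the CLCA genes. They were taken by gene symbol as every gene named Cacna, Cacnb, Cacng, Clcn, numbered Ano or Clca, and the IP3 receptor (Itpr) and ryanodine receptor (Ryr) genes. The symbol rule uses no expression value, but the set was chosen with earlier results of these data known. Of 58 protein-coding mouse genes with such symbols, 52 had a probe set with a single gene symbol, out of 19938 named genes in all. The others, among them Ano5, Cacnb3, Cacng6 and Itpr1, are not analysed here. Where a gene had several probe sets, that with the highest mean over the arrays stood for it.

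The samples were mesangial cells, the contractile pericyte-like cells of the kidney glomerulus, from adult male CD-1 mice with the transgene Tg(Meis1-EGFP)FO156Gsat, in which Meis1 regulatory sequence on a bacterial artificial chromosome drives green fluorescent protein. Cortical glomeruli were caught on a mesh, dissociated with trypsin and sorted by fluorescence, and the labels name both glomerular and extraglomerular mesangium as the source. Each of 3 samples came from 1 kidney without pooling and was measured on 1 Affymetrix array, so the number of arrays limits the precision. The labels form 1 group with no control population. Whether different mice gave the 3 kidneys is not stated, so the SDs below cover these samples alone and may be technical.

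Mesangial cells narrow or relax the capillary bed, and calcium is their trigger. In the textbook scheme, vasoconstrictors act through Gq-coupled receptors to form IP3, which opens IP3 receptors on the endoplasmic reticulum. The calcium released opens calcium-activated chloride channels, the exit of chloride depolarises the membrane, and voltage-gated calcium channels then admit more calcium. Most ClC proteins work in endosomes and lysosomes instead, where they exchange chloride for protons.

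All values are deposited probe set signals on a log scale, taken as log2 from their range, given for samples 1, 2 and 3 in that order or as the mean ± SD (n = 3). A gene was called above the silent-gene threshold when it passed, on every array, the 95th percentile of 1269 probe sets for olfactory, vomeronasal, trace amine receptor and keratin-associated protein genes. These families were taken as silent in kidney cells, which was not tested. The thresholds were 7.48, 7.46 and 7.40. A second call raised each threshold by 1. Probe sets differ in affinity, so genes are set against the threshold and not against each other. The rule is permissive: 59 of 1253 silent genes (4.71%) passed it and 12 (0.958%) passed the raised one.

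Most calcium and chloride channel genes were not above the threshold, and a few stood far above it. Of the 52 genes, 19 (36.5%) lay above the threshold on all 3 arrays, beside 58.0% of the 18685 named genes outside the silent families. At the threshold raised by 1, 5 channel genes (9.62%) remained, beside 32.7% of all named genes, and 14 (26.9%) passed by less than 1, beside 25.3%. The 5 were the calcium-activated chloride channel gene Ano1, the phospholipid scramblase gene Ano6, the calcium channel subunit gene Cacna2d1 and the endosomal exchanger genes Clcn4 and Clcn6. The median over the channel genes was 7.29, beside 7.80 over all named genes. Since many channel genes sat near the threshold (21 of 52, or 40.4%, within 0.5 of it on either side, beside 27.1% of all named genes), the count moved with it. With the 90th percentile of the silent probe sets 30 channel genes lay above, and with the 99th 7 did. In bulk samples, transcript in few cells and a low level in every cell cannot be told apart.

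**Figure D1:**
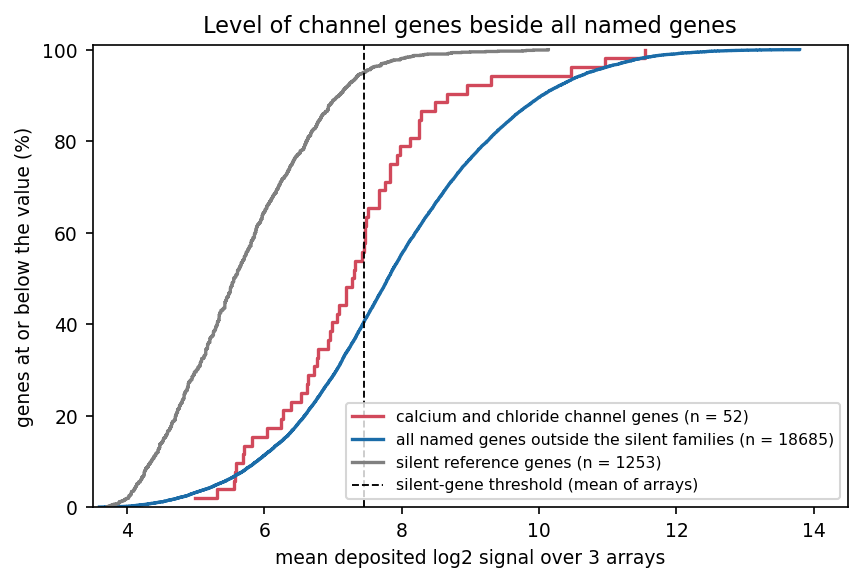
Share of genes (vertical axis, %) whose mean deposited log2 signal over 3 arrays lies at or below the value on the horizontal axis, for the 52 channel genes, the 18685 named genes outside the silent families and the 1253 silent reference genes. The dashed line is the mean of the 3 silent-gene thresholds, and the curve of the channel genes lies above that of all named genes at the line, with medians of 7.29 and 7.80.

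The genes Ano1, Cacna2d1 and Ano6, all more than 2 above the threshold on every array, are shown here by their promoters, with Clca4b, whose own probe set lay below it, as an example of a window without CG. Each window runs from 250 bases before to 50 after the RefSeq start in GRCm38.p6 and is written 5′ to 3′ on the gene's strand. Capitals mark GC boxes, searched as GGGCGG and its reverse complement CCGCCC, with overlapping matches joined.
Ano1 (chr7:144738524-144738823, minus strand): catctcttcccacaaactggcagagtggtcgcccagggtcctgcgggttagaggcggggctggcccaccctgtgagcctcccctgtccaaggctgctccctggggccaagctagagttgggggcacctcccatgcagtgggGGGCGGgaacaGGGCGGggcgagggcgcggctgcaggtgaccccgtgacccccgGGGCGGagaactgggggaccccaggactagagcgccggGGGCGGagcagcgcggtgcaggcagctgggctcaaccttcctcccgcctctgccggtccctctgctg
Cacna2d1 (chr5:15934441-15934740, plus strand): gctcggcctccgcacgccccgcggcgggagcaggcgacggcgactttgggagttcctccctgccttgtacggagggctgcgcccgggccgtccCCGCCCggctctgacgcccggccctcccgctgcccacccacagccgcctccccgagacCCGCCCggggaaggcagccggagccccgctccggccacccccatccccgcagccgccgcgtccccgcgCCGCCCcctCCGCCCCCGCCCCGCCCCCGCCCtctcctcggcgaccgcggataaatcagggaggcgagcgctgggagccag
Ano6 (chr15:95790593-95790892, plus strand): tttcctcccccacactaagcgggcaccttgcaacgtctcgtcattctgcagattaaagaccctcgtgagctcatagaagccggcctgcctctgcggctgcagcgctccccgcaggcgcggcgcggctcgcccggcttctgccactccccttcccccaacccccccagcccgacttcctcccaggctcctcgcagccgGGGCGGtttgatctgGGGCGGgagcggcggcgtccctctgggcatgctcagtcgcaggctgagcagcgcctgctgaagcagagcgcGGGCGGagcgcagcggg
Clca4b (chr3:144932480-144932779, minus strand): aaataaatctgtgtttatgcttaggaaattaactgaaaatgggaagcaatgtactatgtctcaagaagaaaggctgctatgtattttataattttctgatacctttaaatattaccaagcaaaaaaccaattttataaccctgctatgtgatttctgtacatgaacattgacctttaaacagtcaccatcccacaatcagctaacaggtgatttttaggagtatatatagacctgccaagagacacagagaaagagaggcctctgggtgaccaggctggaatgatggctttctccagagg
The Cacna2d1 window held 42 CG dinucleotides and 7 GC boxes, the Ano6 window 29 and 3, and the Ano1 window 18 and 4. The Clca4b window held no CG dinucleotide and no GC box. Windows rich in CG also stood among genes not above the threshold: a window of Cacna1d held 63 CG and 6 GC boxes and that of Cacna2d3 41 and 6. Over the 41 channel genes with a window in the RefSeq table, taking the window richest in CG where a gene had several, a GC box stood in 5 of 5 genes above the raised threshold, in 7 of 10 above the threshold only and in 16 of 26 not above it. Among 17491 protein-coding genes treated alike it stood in 47.8%. The median ratio of observed to expected CG was 0.808, 0.710 and 0.474 in those 3 sets of channel genes and 0.609 in the protein-coding genes. No window of the 41 genes held a CArG box, the site of serum response factor, searched on both strands, beside 1.48% of the protein-coding genes. A match is a string of letters and was not measured as a binding site.

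Of the 24 measured genes of voltage-gated calcium channels, 8 lay above the threshold and 1, Cacna2d1, above the raised one. Among all named genes 58.0% and 32.7% did. The α1 subunits, which form the pore and sense voltage, were mostly at the threshold or below it. Of 10 α1 genes, 1 passed on all 3 arrays, Cacna1c and Cacna1g passed on some, and 7 passed on none. With the 90th percentile threshold 5 of the 10 passed, beside 68.8% of all named genes. The gene above on all 3 was Cacna1a, the pore of P/Q-type channels known chiefly from nerve terminals, with 8.21, 8.33 and 8.21 (8.25 ± 0.07). It lay less than 1 above the threshold in every sample.

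The L-type pores, targets of the dihydropyridine drugs, did not pass. Cacna1c, the L-type pore of heart and vascular smooth muscle, had 7.42 in each sample to 2 decimals, above the threshold of array 3 alone. Cacna1d, which also serves pacemaking and hormone release, had 6.63 on every array. The retinal Cacna1f had 6.96 and the skeletal muscle Cacna1s 6.93, both identical on the 3 arrays. The L-type pore of vascular muscle therefore sat at the edge of the call and the other 3 L-type pores lay below it.

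The T-type pores, which open at voltages near rest, were close to the threshold or below. Cacna1g had 7.47 on each array and passed on 2 of 3, so that its call turned on the threshold and not on its own value. Cacna1h had 7.32 and Cacna1i 6.76, each identical on the 3 arrays. The N-type pore gene Cacna1b had 6.78 on each array, and the R-type pore gene Cacna1e had 7.29, 7.29 and 7.26. None of these 5 genes passed on all 3 arrays.

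The α2δ subunits are extracellular proteins that carry the channel to the cell surface, and that of Cacna2d1 binds the drug gabapentin. Cacna2d1 had 10.35, 11.21 and 11.34 in samples 1, 2 and 3 (10.97 ± 0.54). Sample 1 was the lowest, 0.86 under sample 2, and even there the gene lay 2.87 above the threshold. Its second probe set had 10.71, 10.85 and 10.85 (10.80 ± 0.08), again lowest in sample 1 but with a far smaller gap. The other α2δ genes did not pass on all 3 arrays. Cacna2d2 had 7.46 on each array, above the threshold of array 3 alone, Cacna2d4 7.31 and Cacna2d3 5.57.

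The cytoplasmic β subunits bind the α1 pore and bring it to the membrane, and the 3 measured β genes lay at the threshold or below it. Cacnb3 had no probe set with a single symbol and is not among them. Cacnb1, the skeletal muscle partner, passed by 0.03 at 7.51 on each array. Cacnb2, the partner in heart, had 7.20, 7.16 and 7.20, and Cacnb4, known from brain, had 6.49, 6.34 and 6.34.

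The γ genes had more members above the threshold, all by less than 1 on their lowest array. Of 7 measured, 5 passed, beside 58.0% of all named genes: Cacng1, Cacng2, Cacng4, Cacng5 and Cacng7. Cacng1 encodes a subunit of the skeletal muscle calcium channel and had 7.83 on each array. The others belong to proteins known chiefly as partners of AMPA-type glutamate receptors in brain. Cacng7 had 8.72, 8.38 and 8.85 (8.65 ± 0.24), lowest in sample 2, where it fell short of the raised threshold. Cacng4 had 8.28 and Cacng5 7.67 on each array. The 2 probe sets of Cacng2 disagreed, with 7.67 above the threshold and 6.46 below it, each identical on the 3 arrays. Cacng8 at 7.20 and Cacng3 at 5.56 did not pass. By the RefSeq table of GRCm38.p6, Cacng1, Cacng4 and Cacng5 follow one another on chromosome 11 and all passed, whereas of the neighbours Cacng7 and Cacng8 on chromosome 7 Cacng7 alone did.

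**Figure D2:**
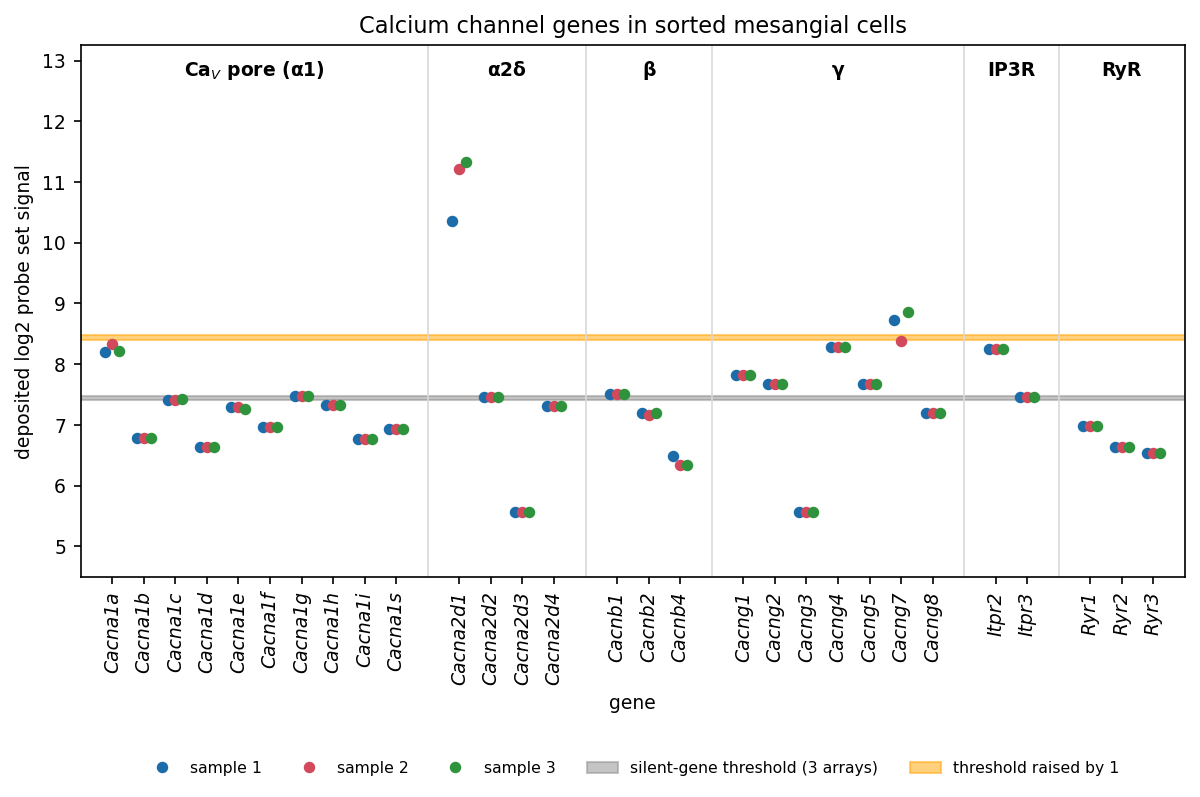
Deposited log2 signal (vertical axis) of each measured calcium channel gene (horizontal axis) in samples 1, 2 and 3, grouped by subunit or receptor, with the range of the silent-gene thresholds in grey and the same raised by 1 in orange. Cacna2d1 stands apart at 10.35 to 11.34, most pore genes lie at or under the grey band, and all 3 ryanodine receptor genes lie under it.

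The calcium release channels of the endoplasmic reticulum were represented by 5 genes, of which 1 passed, beside 58.0% of all named genes. Itpr1 had no probe set with a single symbol and is not among them. Itpr2, an IP3 receptor with high affinity for its ligand, had 8.25 in each sample to 2 decimals (8.25 ± 0.00) and lay 0.77 above the threshold at the least. Itpr3 had 7.46 on each array, above the threshold of array 3 alone. The ryanodine receptors, which release calcium in response to calcium and are the release channels of striated muscle, were below on every array. The skeletal muscle gene Ryr1 had 6.98, the cardiac gene Ryr2 6.64 and Ryr3 6.54, each identical on the 3 arrays. None passed under any of the alternatives tried, including the 90th percentile threshold.

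Genes that act with these release channels were read in the same way. Of 20 measured store pumps, buffers and release partners 14 (70.0%) passed, beside 58.0% of all named genes, and 11 (55.0%) passed the raised threshold, beside 32.7%. The pump gene Atp2a2, which refills the store, had 11.74, 11.80 and 11.93 (11.82 ± 0.10), its relative Atp2a3 8.84 ± 0.11, and phospholamban (Pln), which restrains the pump, 9.69 ± 0.21. Calr, for the luminal calcium buffer calreticulin, had 11.29 ± 0.07. Sri, for the calcium-binding protein sorcin, had 11.46 ± 0.10, and Ahcyl1, whose product binds IP3 receptors, 11.19 on each array. Several partners of ryanodine receptors in muscle also passed the raised threshold. These were the junctophilin gene Jph2, which ties the reticulum to the surface membrane, at 10.09 ± 0.11, the triadin gene Trdn at 9.02 ± 0.08, and Fkbp1a, whose product binds ryanodine receptors, at 9.60 ± 0.08. Asph at 8.63 and the potassium channel gene Tmem38b of the same membrane at 9.13 ± 0.02 complete the 11. Fkbp1b, the partner of the cardiac receptor, had 6.59 and was not above the threshold. Neither were Casq1, Casq2, Jph1, Jph4 and Sln of this list, and Hrc, Jph3 and Atp2a1 passed the threshold but not the raised one.

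Of 14 measured genes of IP3 production, 9 (64.3%) passed and 5 (35.7%) passed the raised threshold, shares near those of all named genes (58.0% and 32.7%). The G protein genes Gnaq and Gna11, which couple angiotensin and endothelin receptors to phospholipase C, had 9.99 ± 0.05 and 10.35 ± 0.03. Among the phospholipases, Plcb3 had 9.84 ± 0.03, Plcg1 9.55 ± 0.11 and Plcb2 8.78 ± 0.16. Gna15, a subunit of blood cells, had 6.42 and was not above the threshold.

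Regulators of the voltage-gated pore passed in 11 of 17 cases (64.7%, beside 58.0% of all named genes), 9 of them above the raised threshold (52.9%, beside 32.7%). The 9 were the calmodulin genes Calm2 at 13.30 ± 0.03 and Calm3 at 10.84 ± 0.19, the calcineurin genes Ppp3ca at 10.48 ± 0.05, Ppp3cb at 10.44 ± 0.05 and Ppp3cc at 8.61 ± 0.02, the calmodulin kinase genes Camk2d at 9.28 and Camk2g at 9.51 ± 0.15, the scaffold gene Ahnak at 10.65 and Rrad at 8.72. Rrad encodes a small GTPase that inhibits L-type channels through the β subunit. Its relatives Gem, at 6.43, and Rem2, at 6.15, were below. Apart from Rrad, these 9 genes act on many targets beside calcium channels. Of 6 measured genes of calcium extrusion, 2 passed (33.3%, beside 58.0% of all named genes), both above the raised threshold. These were the plasma membrane pump gene Atp2b1 at 11.34 ± 0.00 and the sodium-calcium exchanger gene Slc8a1 at 9.67 ± 0.00, while Atp2b3, at 7.08, did not pass.

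Of 12 measured genes for channels and channel subunits of endolysosomes and mitochondria, 9 (75.0%) passed and 8 (66.7%) passed the raised threshold, beside 58.0% and 32.7% of all named genes. Of the 6 that encode a calcium-conducting pore of the two-pore channels, the Mcoln channels or the uniporter, grouped after their values were seen, 3 passed and 2 passed the raised threshold. The two-pore channel gene Tpcn1 had 9.35 on each array and the lysosomal channel gene Mcoln1 9.36 ± 0.08. The genes of the mitochondrial outer membrane anion channels, Vdac1, Vdac2 and Vdac3, had 9.52, 11.77 ± 0.09 and 11.20 ± 0.10. Of the mitochondrial calcium uniporter, the regulatory subunit genes Smdt1 at 10.67 ± 0.20, Micu2 at 8.98 ± 0.06 and Micu3 at 8.51 ± 0.08 passed, and the pore gene Mcu, at 7.24 on each array, did not. Mcoln3, at 6.20, did not pass either.

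Of the 23 anoctamin, ClC and CLCA genes, 10 lay above the threshold and 4 above the raised one, beside 58.0% and 32.7% of all named genes. Anoctamins divide into calcium-activated chloride channels and scramblases, which move phospholipids between membrane leaflets, and members of both kinds stood far above the threshold. Ano1, the calcium-activated chloride channel of smooth muscle and secretory epithelia, had 11.49, 11.52 and 11.62 (11.55 ± 0.07), at least 4.01 above the threshold in every sample. Ano2, the channel of olfactory neurons and photoreceptors, had 7.07 on each array and was below it. The scramblase gene Ano6, whose loss in humans causes a bleeding disorder of platelets, had 10.46 on all 3 arrays.

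Among the other anoctamins, 2 passed by less than 1. Ano10 had 8.55, 8.45 and 8.45 (8.48 ± 0.05) and reached the raised threshold in sample 1 but not in sample 2. Ano8, whose product tethers the endoplasmic reticulum to the surface membrane, had 8.16, 8.10 and 8.11 (8.12 ± 0.03). Ano7 had 7.08, 7.08 and 7.11, Ano9 6.25, Ano4 5.71 and Ano3 4.99, and none of them passed. The second probe set of Ano3, at 4.78, was below as well.

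Most ClC genes lay above the threshold. Of 7 measured, 6 passed and 2 passed the raised threshold, beside 58.0% and 32.7% of all named genes. Values were identical on the 3 arrays for 6 of the 7, beside 51.1% of all named genes. The endosomal exchanger gene Clcn4 had 9.30 and the late endosomal Clcn6 8.95. Clcn5, the endosomal exchanger of proximal tubule lost in human Dent disease, had 7.97. Clcn7, the lysosomal exchanger, had 7.93, and Ostm1, its obligatory partner, had 8.33, 8.36 and 8.36. Clcn3, a further endosomal exchanger, had 7.43, 7.51 and 7.51 and was below the threshold in sample 1 alone. The surface channels Clcn1, known from skeletal muscle, and Clcn2, found in many tissues, had 7.76 and 7.83. Thus 4 of the 5 exchanger genes passed, 2 of them by over 1, and both surface channel genes passed by under 0.5.

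The CLCA proteins are not pores: human CLCA1 is a secreted protease that raises the surface level of the ANO1 channel. All 7 measured CLCA genes were below the threshold on every array. Clca3a2 had 6.72, Clca4a 6.27, Clca3b 6.04, Clca1 5.69, Clca4b 5.59 and Clca3a1 5.32, each identical on the 3 arrays, and Clca2 had 5.85, 5.79 and 5.81. The 7 genes follow one another on chromosome 3 with no other protein-coding gene between them, by the RefSeq table. A probe set assigned to both Clca4a and Clca4b, which names no gene under the rule, had 8.10, 8.17 and 8.17 and lay above the threshold.

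**Figure D3:**
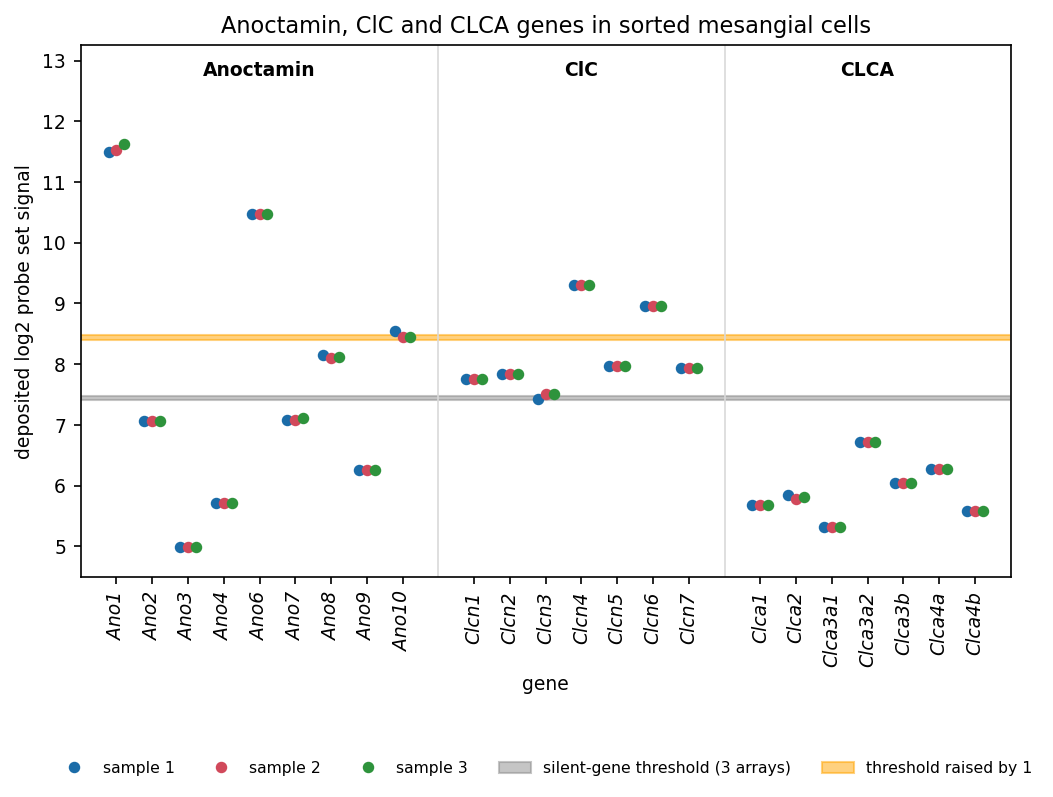
Deposited log2 signal (vertical axis) of each measured anoctamin, ClC and CLCA gene (horizontal axis) in samples 1, 2 and 3, with the silent-gene thresholds in grey and the same raised by 1 in orange. Ano1 and Ano6 stand at 10.46 or more, Clcn4 and Clcn6 lie above the orange band, and all 7 CLCA genes lie below the grey band.

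Of 21 other measured genes listed as chloride channels or subunits, 13 (61.9%) passed and 7 (33.3%) passed the raised threshold. These shares were near those of all named genes (58.0% and 32.7%). Whether every product is a channel or a subunit was not tested. The volume-regulated anion channel was represented by its obligatory subunit gene Lrrc8a at 9.64 and by Lrrc8c at 10.16 ± 0.11, with Lrrc8b at 7.22 ± 0.10 below. Clic4 had 12.09 ± 0.05, Clic1 9.98 ± 0.02 and Clns1a 9.91. Ttyh2 had 8.85 ± 0.14 and Ttyh3 8.80. Cftr, the cAMP-regulated channel of epithelia, had 5.10 and Bsnd, for the chloride channel subunit barttin, 6.94, and neither was above the threshold.

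Chloride leaves a cell through an open channel only when it has been accumulated inside, so transporters that set the chloride gradient were listed too. Of 9 measured, 8 passed (88.9%, beside 58.0% of all named genes) and 3 passed the raised threshold (33.3%, beside 32.7%). Among the 8, Slc12a3, Slc12a5, Slc12a7 and Slc4a1 were within 0.5 of the threshold. The sodium-potassium-chloride cotransporter gene Slc12a2, which loads cells with chloride, had 13.50, 13.63 and 13.42 (13.52 ± 0.11). Slc12a4, which exports chloride with potassium, had 9.11 and the anion exchanger gene Slc4a3 8.62 ± 0.02. Slc12a1, the form of the thick ascending limb, had 6.42 ± 0.03 and was not above the threshold.

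**Figure D4:**
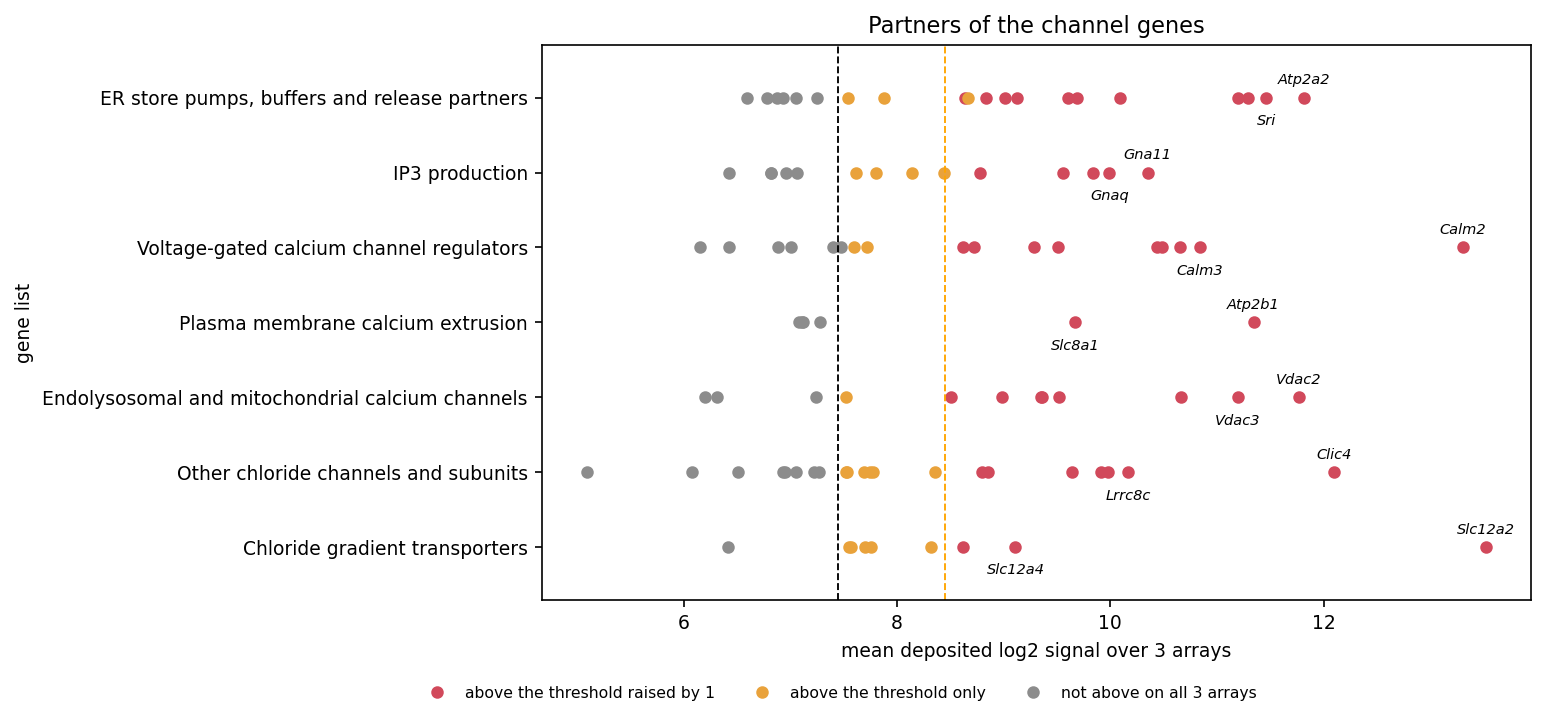
Mean deposited log2 signal over 3 arrays (horizontal axis) of every measured gene of the 7 partner lists (rows), coloured by whether it lay above the threshold raised by 1, above the threshold only, or not above it on all 3 arrays, with the mean thresholds as dashed lines. Every list holds genes above the raised threshold, such as Slc12a2 at 13.52 and Calm2 at 13.30, and genes that were not above.

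Differences between the samples were small for all but a few channel genes. Of the 52 genes, 38 (73.1%) had 1 identical value on all 3 arrays, beside 51.1% of all named genes. Among genes above the threshold the shares were 12 of 19 (63.2%) and 39.4%, and among genes not above it 26 of 33 (78.8%) and 67.3%. An SD of 0 thus describes the deposited values and is no measure of error. The median SD of the 19 channel genes above the threshold was 0, beside 0.02 for all named genes above it. A range above 0.5 was found in 1 of the 52 genes (1.92%), Cacna2d1, beside 3.43% of all named genes. Counted over genes above the threshold, this was 1 of 19 (5.26%), beside 4.33%. Cacng7 came next with a range of 0.47. The samples did not order these genes alike: sample 1 was lowest for Cacna2d1, Ano1 and Clcn3 and highest for Cacnb4 and Ano10, and sample 2 was lowest for Cacng7 and highest for Cacna1a.

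**Figure D5:**
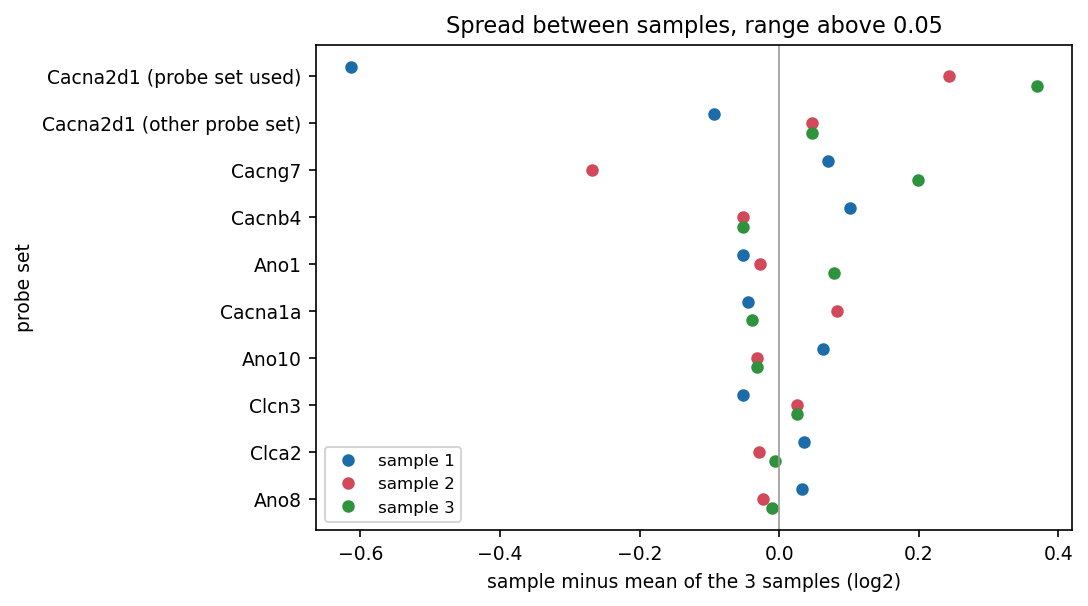
Deviation of each sample from the mean of the 3 samples (horizontal axis, log2) for the 9 channel genes with a range above 0.05, and for the second probe set of Cacna2d1 (rows). The 2 probe sets of Cacna2d1 both have sample 1 lowest, with ranges of 0.98 and 0.14, and the other genes stay within 0.47.

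Marker genes of the sorted population and of other cells were read beside these values. The marker lists were chosen with earlier results of these data known, so their shares do not test the identity of the cells. The raised threshold was passed by 15 of 16 measured mesangial markers (93.8%), 10 of 14 contractile smooth muscle genes (71.4%), 8 of 13 endothelial genes (61.5%) and 3 of 9 podocyte genes (33.3%), beside 32.7% of all named genes. No marker of the proximal tubule (0 of 10), of the later tubule (0 of 11), of neurons (0 of 10) or of macrophages and lymphocytes (0 of 10) did, and of striated muscle Tnnt2 alone did (1 of 10). At the threshold itself, 4 of 10 proximal (40.0%) and 6 of 11 later tubule markers (54.5%) passed, beside 58.0% of all named genes. So did 5 of 10 striated muscle, 4 of 10 macrophage and lymphocyte and 1 of 10 neuron markers. The loop of Henle gene Umod, at 9.51, 9.18 and 8.22, was more than 1 above the threshold in samples 1 and 2. Averaged over each list, samples 1, 2 and 3 had 11.29, 11.29 and 11.26 for mesangial markers, 9.17, 9.11 and 9.21 for endothelium, 9.84, 9.75 and 9.94 for smooth muscle, 8.48, 8.43 and 8.52 for podocytes, 7.46, 7.34 and 7.18 for the proximal tubule and 7.31, 7.44 and 7.33 for the later tubule. The proximal tubule genes Kap, at 8.44, 8.51 and 7.17, and Miox, at 7.40, 6.15 and 6.13, differed between samples by over 1. The smooth muscle, endothelial and podocyte lists, like Cacng7, were all lowest in sample 2 and highest in sample 3. The neuron list, at 6.94, 6.90 and 6.94, and the striated muscle list, at 7.62, 7.54 and 7.62, were also lowest in sample 2. In the striated muscle list Tnnt2 alone differed between the arrays, at 9.80, 9.04 and 9.80. In the neuron list Syp varied most, at 8.75, 8.41 and 8.83. Within the podocyte list, Cd2ap had 11.21, Plekhh2 10.51 ± 0.10 and Wt1 10.15 ± 0.08, while Nphs1, for nephrin of the slit diaphragm, had 7.39 ± 0.06 and did not pass. The part of endothelial cells, podocytes, tubule cells or vascular smooth muscle in the channel values was not tested.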

How the data were processed

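Sorted mesangial cells from 3 kidneys were measured on 1 Affymetrix array each, after 1 round of amplification, per the labels' protocols. Per the submitters' processing notes, the authors used Affymetrix Expression Console. They deposited probe set signals on a log scale, read here as log2. Its version, background correction and summarisation were not given in the sources used here. Base 2 was inferred from the range (highest value 14.39), and centring beyond array medians of 7.53, 7.56 and 7.54 is unknown. Of 35557 probe sets, 14310 (40.2%) held 1 value on all 3 arrays.

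Values were used as deposited. Of 23410 probe sets in the platform annotation, 21789 had 1 symbol and 1621 several, and 12147 were unlisted and unnamed. Symbols were updated by Entrez number with the RefSeq table of GRCm38.p6 (21698 matched). Calls, SDs and counts were computed with Python 3.11.15 and pandas 2.3.3. The code for the calls was checked on the deposited values with genes planted at known margins to the threshold. This check did not cover the SDs. With 1 group there was no comparison of conditions and no test. The members, lists and threshold were chosen with earlier results of these data known, and every member is named. Promoters are RefSeq windows. Alternatives changed the percentile, silent families, arrays, probe set, symbols and scaling.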

Additional observations from a re-analysis of the deposited data

Results flagged for a closer look

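A probe set outside the counts lay above the silent-gene threshold. It is assigned to both Clca4b and Clca4a and had 8.10, 8.17 and 8.17 (8.15 ± 0.04, n = 3), whereas the single-symbol probe sets of Clca4a and Clca4b had 6.27 and 5.59. It lay at least 0.62 above the threshold on each array, and which transcript it measures was not tested.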

How the results depend on the processing

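Among the 52 channel genes, the count above the threshold moved by over 1.5 times under the percentile alone, being 19 at the 95th, 30 at the 90th and 7 at the 99th, beside 58.0%, 68.8% and 35.3% of all named genes. Above the raised threshold the counts were 5, 11 and 3, and the 3 at the 99th percentile were Ano1, Ano6 and Cacna2d1. The share of channel genes was below that of all named genes in each of these settings. Olfactory receptors alone or the mean of the arrays gave 23, the lowest or averaged probe set 18, and probe sets with several symbols 21, while symbols without update and centred arrays gave 19. Leaving out each replicate gave 19 to 21 genes, 5 to 7 above the raised threshold and a median SD of 0 throughout. Without replicate 1, Cacna1g and Clcn3 joined, and without replicate 2, Ano10 and Cacng7 joined those above the raised threshold. At the 99th percentile Cacna1a, Itpr2 and Clcn7 were among 12 calls lost. No paired analysis was possible because the labels form 1 group. The number of arrays, the unknown summary method and the identical values limit every SD.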

Other observations

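Some partner genes of calcium stores differed between the samples. Hrc, for a histidine-rich calcium-binding protein of the reticulum, had 8.45, 8.45 and 9.10 in samples 1, 2 and 3 (8.67 ± 0.37), above the threshold in each and highest in sample 3. Casq2, for the cardiac form of the store buffer calsequestrin, had 6.79, 6.99 and 7.38 (7.05 ± 0.30), also highest in sample 3 and not above the threshold in any. Pln had 9.63, 9.51 and 9.92, again highest in sample 3. Trdn, of the same list, had 9.04, 9.08 and 8.92 and was lowest in sample 3. Of the smooth muscle markers, Acta2 had 10.64, 10.50 and 10.98, Myh11 10.44, 10.19 and 10.70, and Tpm2 10.35, 10.01 and 10.48, all highest in sample 3. Tagln, Cnn1, Cald1, Myl9 and Rgs5 were also highest in sample 3. Des and Synpo2 of that list were highest in sample 1, and Mylk, Smtn, Lmod1 and Actg2 had 1 value on all 3 arrays. The part of smooth muscle in the values of Pln, Hrc and Casq2 was not tested. Hrc, Casq2, Pln, Acta2, Myh11 and Tpm2 were chosen after their values were seen.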
